A study of Mus musculus with 20 samples.

Results

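Acetylation of histone H3 at lysine 27 (H3K27ac) was compared between fasted livers of Ppara KO and WT mice, with 2 livers in each group. The mark had been mapped by ChIP-seq, in which DNA bound to the acetylated histone is pulled down with an antibody and sequenced. The unit of comparison was the deposited consensus interval, a stretch of the genome where H3K27ac was called in the study, and the value was the fold over background of the highest peak that a library had in it. Of 65776 consensus intervals, 50762 carried a peak in at least 1 of the 4 libraries. All 4 libraries had a peak in 21083 intervals, called shared below and compared by size of change. Both WT livers and neither Ppara KO liver had a peak in 3560 intervals (lost), and the reverse held for 3297 (gained).

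The mice were 9-week-old C57BL/6 males fasted for 24 hours, and the liver was frozen before chromatin was prepared. WT mice carried no deletion, and Ppara KO mice lacked Ppara in the whole body (Ppara -/-). The series also holds Cpt2 KO mice (Cpt2 L-/-), which lack Cpt2 in liver, and DKO mice with both deletions (Cpt2 L-/-; Ppara -/-), again with 2 livers each. The Cre line that deleted Cpt2 is not given in the sources used here. All groups shared strain, sex, age and fast, so nothing here compares fasted with fed liver.

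H3K27ac marks active promoters and enhancers, and H3K4me1 marks enhancers whether active or not. PPARA is a nuclear receptor that binds fatty acids, pairs with RXR and switches on genes of fatty acid transport, oxidation and ketone body synthesis in the fasting liver. Cpt2 encodes an inner mitochondrial membrane enzyme that hands long-chain fatty acids over to mitochondrial oxidation, so a liver without it cannot burn them there.

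The 4 libraries held 44454 to 46543 peaks each, with a median fold of 6.69 to 7.17, and read depth is not given in these files. Peak names carry a number per library, and the numbers of Ppara-null and other livers lie at least 2700 apart, so anything else that goes with those numbers cannot be told apart from genotype. Over the promoters richest in G and C, the median level of WT replicate 2 stood above its library median by 0.97 on the log2 scale, against 0.60 in WT replicate 1 and 0.36 to 0.48 in the other 6 H3K27ac libraries. A set of 192 called intervals was followed, not all of them printed here. It joins those picked by the naming rules with those that also passed in DKO against Cpt2 KO in the same direction. All kept their sign without WT replicate 2 and 55 kept their call. Those that lost it include Mfsd2a, Slc25a20, Acads, Cyp4a10, Srebf1 and Fasn (adjusted p of 0.104, 0.103, 0.0697, 0.0895, 0.0537 and 0.163). Without Ppara KO replicate 1, 41 of the 192 kept their call, and without Ppara KO replicate 2, 49 did. The sign of a call could hardly turn when 1 liver was left out, since no call had groups that overlapped. Nothing in the labels says how the 2 livers of a group were raised, and p-values measure the spread between these samples.

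The Ppara gene itself was marked in all 4 livers. Its promoter interval (chr15:85730896-85741526) had folds of 16.2 and 21.1 in WT and 20.2 and 28.4 in Ppara KO. The 2 groups differed by 0.39 ± 0.19 on the log2 scale (SE, n = 2 livers a group), which did not pass the threshold (limma, adjusted p = 0.227). The neighbouring interval within the gene (chr15:85741614-85744699) had folds of 13.7 and 18.6 in WT and 8.69 and 8.60 in Ppara KO, and fell by 0.87 (adjusted p = 0.0482). This call is fragile, since 13 of 18 alternative settings lost it, with adjusted p up to 0.275. The mark at the gene does not show whether its RNA or protein was made, so it is no check of the deletion. In the controls Alb, Actb and Gapdh the strongest interval differed by 0.32, -0.04 and -0.39 and none passed the threshold, with a sign at Actb that turned under other scalings.

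A minority of the shared intervals near genes of fatty acid oxidation and transport fell in Ppara KO liver, and most did not pass the test. Over all 21083 shared intervals, 735 (3.49%) fell and 544 (2.58%) rose at an adjusted p below 0.05 (limma with Benjamini-Hochberg adjustment over all shared intervals). Of intervals nearest to the 152 genes of 8 lists on fatty acids and known PPARA targets, 30 of 298 shared ones fell (10.1%), 5 rose (1.68%) and 263 did not pass. For genes of any kind within 25000 bases the figures were 3.67% and 2.2%. The median change was -0.17 over the 298 intervals and -0.06 over all 19330 shared intervals near a gene. Without WT replicate 2 the counts were 76 lower and 146 higher intervals in all, and 8 lower ones near these genes. Without Ppara KO replicate 1 there were 7 lower ones near them. Quantile normalization gave 547 lower and 720 higher, and each library's smallest peak width as a covariate left 25 and 37. The lists were drawn up with earlier results of these data known, so their direction is not independent evidence.

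Peroxisomes shorten very long and branched fatty acids before mitochondria take over, and genes for this route had the most shared intervals lower among the lists. Of 57 shared intervals near 26 such genes, 9 fell and none rose, and the median change was -0.24. Of all 151 intervals near these genes, a further 18 were lost (11.9%), beside none gained. Over all 65776 intervals 5.41% were lost and 5.01% gained, and near genes of any kind 5.73% and 4.5%. At Acaa1b, a peroxisomal thiolase, the promoter interval (chr9:119151863-119160654) had folds of 22.0 and 33.8 in WT and 7.54 and 8.32 in Ppara KO. The WT livers stood far above the Ppara KO livers, and the interval fell by 1.77 ± 0.27 (adjusted p = 0.00533). Folds at Acaa1b were 37.4 and 32.0 in Cpt2 KO and 9.18 and 6.17 in DKO, so both Ppara-null groups lay low. The call at this interval held with any 1 of the 4 livers left out.

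The same was true of Eci2, an enoyl-CoA isomerase that prepares unsaturated chains for oxidation. Its promoter interval (chr13:34990678-34996469) had folds of 21.9 and 27.3 in WT and 7.13 and 10.3 in Ppara KO, and fell by 1.5 ± 0.23 (adjusted p = 0.00533). Hsd17b4, the bifunctional enzyme of the peroxisomal path, had an interval within the gene (chr18:50126596-50135452) with folds of 25.5 and 28.8 in WT and 10.8 and 14.0 in Ppara KO. It fell by 1.12 ± 0.21 (adjusted p = 0.0115). Abcd3, a carrier of fatty acids into the peroxisome, had 38.2 and 49.5 in WT and 25.2 and 26.6 in Ppara KO at its called interval. Acaa1a, Acox2, Ech1, Pex16 and a second Eci2 interval made up the rest of the 9. None of the 3 shared intervals of Ehhadh, the bifunctional enzyme beside Hsd17b4, passed the threshold.

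**Figure D1:**
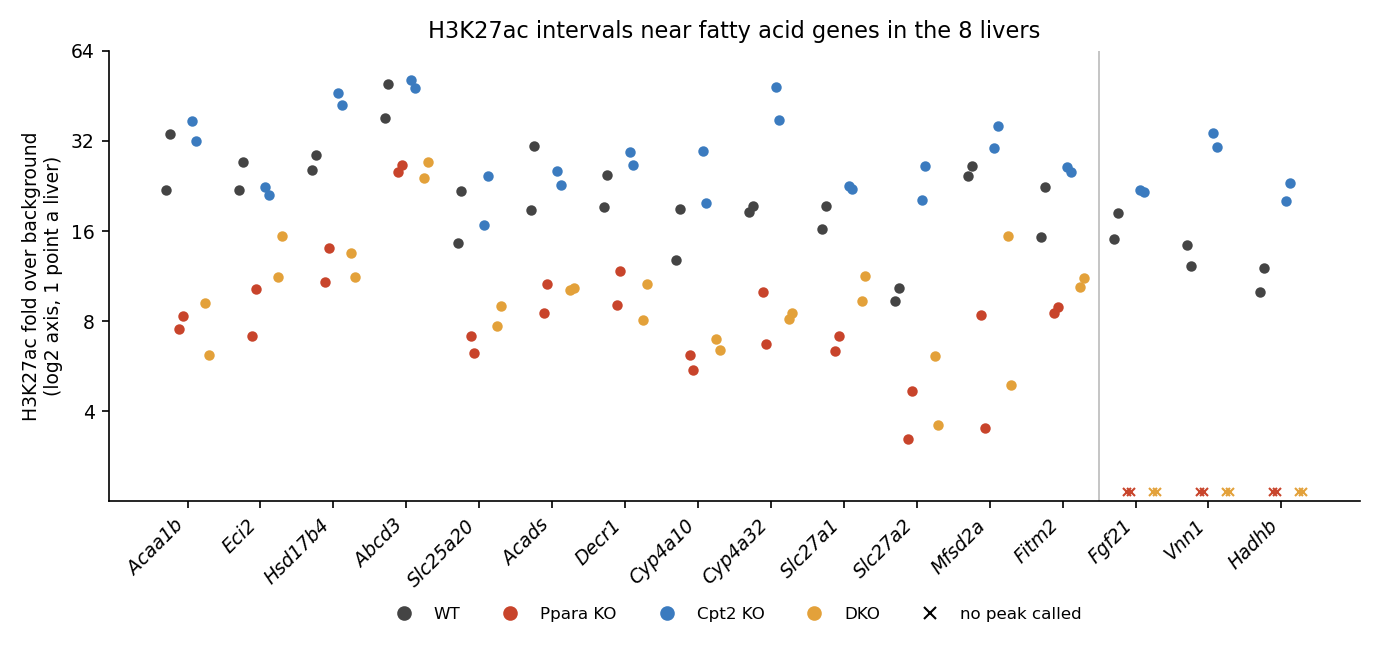
H3K27ac fold over background (log2 axis, 1 point a liver, a cross where no peak was called) at 13 shared and 3 lost intervals near fatty acid genes in the 4 genotypes. At Acaa1b the WT livers lie at 22.0 and 33.8 and the Ppara KO livers at 7.54 and 8.32, and the lost interval at Fgf21 has no peak in any Ppara KO or DKO liver.

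The 4 promoters below belong to genes of this kind whose start lay in a called or lost interval: Acaa1b, the carnitine carrier Slc25a20, the fasting hormone Fgf21 and the lysophospholipid carrier Mfsd2a. Each sequence gives the 250 bases before the RefSeq start, 5′ to 3′ on the gene's strand, with every CG pair in capitals (GRCm38.p6; chr9:119157094-119157343 minus, chr9:108661886-108662135 plus, chr7:45615491-45615740 minus, chr4:122961189-122961438 minus).
Acaa1b: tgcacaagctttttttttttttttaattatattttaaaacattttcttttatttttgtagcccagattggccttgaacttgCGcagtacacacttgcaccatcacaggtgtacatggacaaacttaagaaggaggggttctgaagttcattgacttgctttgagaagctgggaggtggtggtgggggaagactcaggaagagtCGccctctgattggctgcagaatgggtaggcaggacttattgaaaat
Slc25a20: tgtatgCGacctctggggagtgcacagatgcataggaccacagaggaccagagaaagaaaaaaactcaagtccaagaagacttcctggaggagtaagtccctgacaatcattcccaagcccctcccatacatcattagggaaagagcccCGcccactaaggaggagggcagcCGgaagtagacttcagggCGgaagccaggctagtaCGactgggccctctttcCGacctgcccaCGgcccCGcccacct
Fgf21: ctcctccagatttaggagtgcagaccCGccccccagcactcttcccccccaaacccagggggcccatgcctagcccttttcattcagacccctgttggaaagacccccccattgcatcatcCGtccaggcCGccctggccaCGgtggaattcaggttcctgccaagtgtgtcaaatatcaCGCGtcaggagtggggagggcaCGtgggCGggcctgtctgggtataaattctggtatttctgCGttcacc
Mfsd2a: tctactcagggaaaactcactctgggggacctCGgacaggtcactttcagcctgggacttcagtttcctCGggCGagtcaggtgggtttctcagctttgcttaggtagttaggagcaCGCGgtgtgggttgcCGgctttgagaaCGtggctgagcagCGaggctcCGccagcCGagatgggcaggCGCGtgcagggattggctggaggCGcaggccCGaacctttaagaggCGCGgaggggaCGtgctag
G and C made up 41.6%, 56.8%, 59.6% and 61.6% of these sequences, which hold 2, 8, 9 and 17 CG pairs. AGGTCA, the core motif of many nuclear receptors, was searched on both strands, and of the 4 only the Mfsd2a promoter holds it.

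Mitochondrial oxidation and the carnitine shuttle had 4 of 37 shared intervals lower, none higher, and a median of -0.21. Slc25a20 carries acylcarnitine across the inner mitochondrial membrane. Its promoter interval (chr9:108661991-108664295) had folds of 14.6 and 21.7 in WT and 7.14 and 6.29 in Ppara KO, and fell by 1.39 ± 0.28 (adjusted p = 0.0150). Acads, the short-chain acyl-CoA dehydrogenase, had 18.8 and 30.7 in WT and 8.50 and 10.7 in Ppara KO at its promoter interval (fell by 1.32, adjusted p = 0.0103). At Decr1 and Eci1, both needed for unsaturated chains, the changes were -1.06 and -1.10, both past the threshold. The carnitine acyltransferase Cpt1a, where entry into mitochondria is controlled, had folds of 23.0 and 24.7 in WT and 19.8 and 21.0 in Ppara KO at its strongest interval, a difference of -0.21 (adjusted p = 0.49). It had 2 lost intervals further into the gene, both of low fold (at most 6.66). Lost intervals also lay at Hadhb (3), Acadm, Acads, Etfb and Hadh, which made 9 lost of 108 in all (8.33%), beside 2 gained ones at Acadm.

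At Hadhb, a subunit of the trifunctional protein of long-chain oxidation, the strongest lost interval (chr5:30163981-30167655) had folds of 10.0 and 12 in WT and no peak in Ppara KO. It had 20.1 and 23.2 in Cpt2 KO and no peak in DKO, so a peak was called in every liver with Ppara and in none without it.

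The genes of ketone body synthesis, the fasting liver's export fuel, did not move together: 1 of 19 shared intervals fell, 1 rose, and the median was 0.06. The interval that rose lay at Slc16a7, a carrier of monocarboxylates such as ketone bodies (1.46, adjusted p = 0.0118). Its folds were 5.90 and 4.45 in WT and 14.8 and 13.1 in Ppara KO. Of 5 lost intervals among 45, 2 lay at Acat1, a thiolase of the path, the stronger with 12.5 and 7.61 in WT and no peak in Ppara KO.

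Omega-hydroxylation, carried out by CYP4A and CYP4F enzymes in the endoplasmic reticulum, had the highest share of lower calls among the lists on fatty acids, 5 of 21 shared intervals (23.8%), and none higher. The median was -0.41. The interval beside Cyp4a10 (chr4:115513203-115522449) had folds of 12.8 and 19.0 in WT and 6.17 and 5.50 in Ppara KO, and fell by 1.41 ± 0.27 (adjusted p = 0.0129). Cyp4a32 had 18.5 and 19.4 in WT and 10.0 and 6.69 in Ppara KO at a shared interval (fell by 1.19, adjusted p = 0.0189). In Cpt2 KO the same Cyp4a32 interval stood at 48.3 and 37.7, and in DKO at 8.12 and 8.52. Cyp4a14 was lost outright, with 9.25 and 11.6 in WT, no peak in Ppara KO, 30.6 and 26.7 in Cpt2 KO, and 5.32 and 5.51 in DKO. Aldh3a2, which oxidises fatty aldehydes, and Cyp4f17 and Cyp4v3 gave the other calls. Cyp4a genes are near-identical neighbours, and how reads that map to several of them were placed is not given in the sources used here.

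None of the 13 shared intervals near acyl-CoA thioesterases passed the threshold, at a median of -0.31, but 6 of their 49 intervals were lost (12.2%) and none gained. Acot3, a peroxisomal thioesterase, had 9.50 and 34.5 in WT at its promoter interval and no peak in Ppara KO, with a wide gap between the 2 WT livers. Acot4, its neighbour, had 8.33 and 8.67 in WT and none in Ppara KO.

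Uptake, binding and activation of fatty acids gave 4 of 34 shared intervals lower and none higher (median -0.25), with 14 lost (10.7%) and 5 gained (3.82%) of 131 in all. The largest fall of all shared intervals lay at Mfsd2a, a carrier of lysophospholipids (chr4:122956701-122961941). Its folds were 24.4 and 26.4 in WT and 8.42 and 3.52 in Ppara KO, a fall of 2.2 ± 0.48 (adjusted p = 0.0207). Slc27a1, a fatty acid transport protein, had 16.3 and 19.4 in WT and 6.35 and 7.12 in Ppara KO, and its call (fell by 1.38, adjusted p = 0.00693) held with any of the 4 livers left out. Slc27a2, a liver member of that family, fell by 1.32, and the promoter interval of Acsl1, which activates fatty acids with coenzyme A, fell by 0.85. The gained intervals included the promoter of Cd36, the fatty acid scavenger receptor, with no peak in WT and 6.94 and 5.90 in Ppara KO.

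The lists on lipid droplets and on other PPARA targets moved both ways. Lipid droplet genes had 4 lower and 3 higher of 46 shared intervals, and 18 lost (12.4%) and 8 gained (5.52%) of 145, with falls at Mgll (monoglyceride lipase), G0s2 (an inhibitor of lipolysis), Plin5 (a droplet coat protein) and Fitm2 (droplet formation), and rises at Hsd17b13 (a droplet protein, 2 intervals) and the lysosomal lipase Lipa. Mgll alone held 8 lost intervals of 29. Of 75 shared intervals near other known targets, 3 fell (Gpd1, Tmem135 and St3gal5) and 1 rose (Hpd), and of 203 in all 15 were lost (7.39%) beside 13 gained (6.40%). The lost intervals of that list included Vnn1, a pantetheinase, with 14.4 and 12.2 in WT and no peak in Ppara KO. At Fgf21 the promoter interval (chr7:45613190-45616441) had 15.0 and 18.4 in WT liver. With Cpt2 alone deleted it stood at 22.0 and 21.6, and no Ppara KO or DKO liver had a peak. Gained ones lay at Gk, Ppargc1a, Pdk4, Txnip and others. Pdk4, which holds back glucose oxidation in fasting, had 2 gained intervals with folds of at most 6.62.

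**Figure D2:**
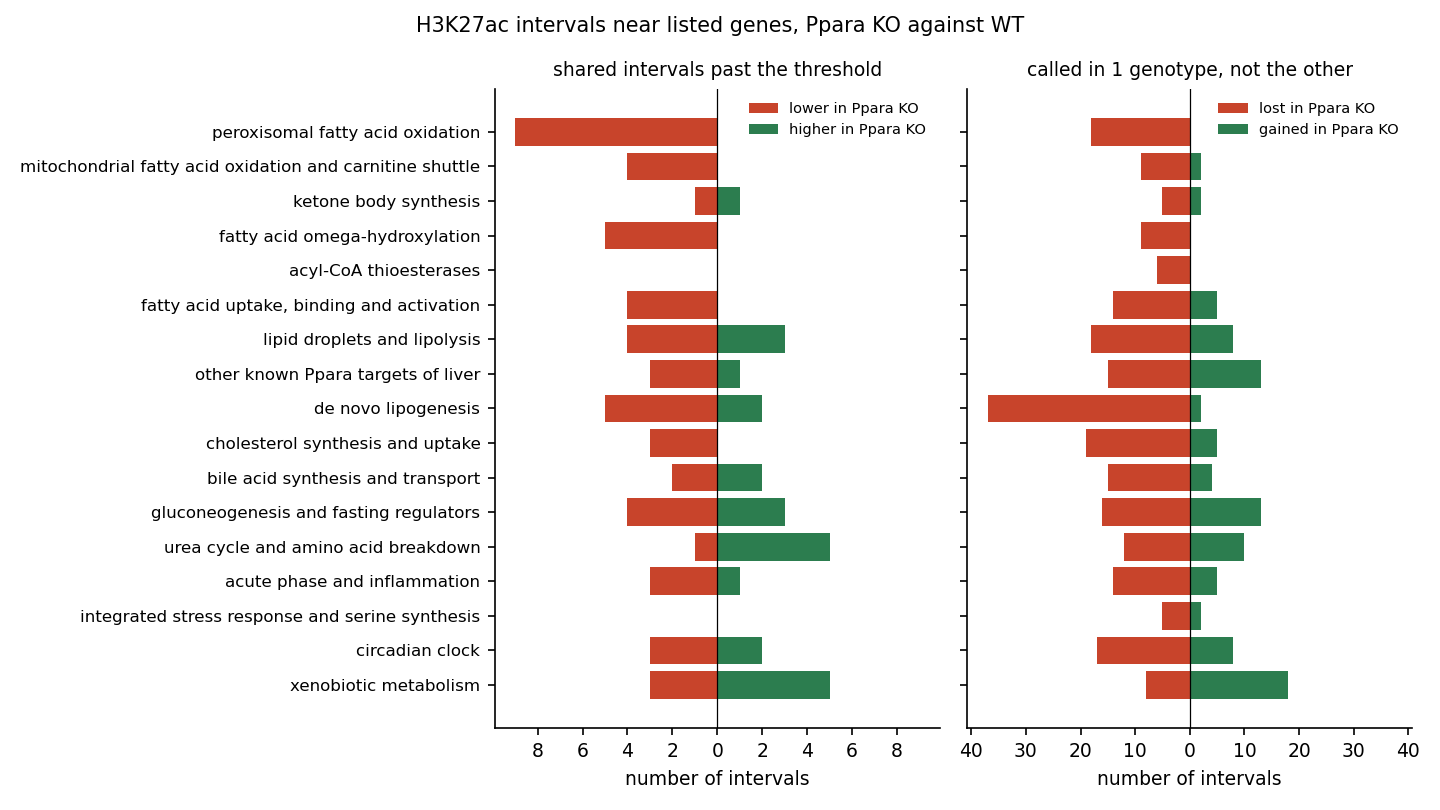
Number of intervals near the genes of 17 lists that passed the threshold among shared intervals (left) or were called in 1 genotype and not the other (right), in Ppara KO against WT. Peroxisomal oxidation has 9 lower and no higher shared interval, and lipogenesis the most lost intervals, 37.

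Lipogenic genes, which build fat from sugar, had 37 lost intervals of 247 and 2 gained, a share lost of 15.0% against the 5.73% near genes of any kind. Of 76 shared intervals 5 fell and 2 rose. Srebf1, the regulator of the path, had 22.2 and 18.5 in WT and 5.83 and 7.50 in Ppara KO at its promoter interval (fell by 1.60, adjusted p = 0.0178). Fasn, the fatty acid synthase, had 20.3 and 32.2 in WT and 7.75 and 13.7 in Ppara KO (fell by 1.29, adjusted p = 0.0243). Me1, which supplies NADPH, fell by 1.30 and the elongase Elovl5 fell by 1.05. In Cpt2 KO liver, Srebf1 stood at 4.14 and 7.50 and Fasn at 8.29 and 11.8, and in DKO at 6.80 and 6.00 and at 12.2 and 12.5. Those 2 intervals were thus high in the WT livers alone, and DKO minus Cpt2 KO was 0.12 at Srebf1 (adjusted p = 0.949) and 0.25 at Fasn (adjusted p = 0.835). Elovl5 did not pass in that pair either (-0.07, adjusted p = 0.964). Me1 differed, with 35.75 and 31 in Cpt2 KO and 8.25 and no peak in DKO (-1.99, adjusted p = 0.0134). Of 64 lipogenic intervals tested in that pair, 4 fell and none rose.

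Cholesterol genes had 3 lower (5.45%) and no higher of 55 shared intervals. Abca1, the cholesterol exporter, had 26.0 and 41.4 in WT and 12.5 and 11.5 in Ppara KO (fell by 1.44, adjusted p = 0.00622). Bile acid genes gave 2 of 86 in each direction (2.33%). Among these, Slco1a4, a carrier of bile acids and other anions, rose by 1.42 (adjusted p = 0.0154), from 7.89 and 12.4 in WT to 23.5 and 29.2. Genes of the urea cycle and amino acid breakdown had 5 of 80 shared intervals higher (6.25%) and 1 lower, a median of 0.14, and 12 lost (4.30%) beside 10 gained (3.58%) of 279. Their rises lay near Got1, Hpd, Otc and Cps1, the last the entry enzyme of the urea cycle, and ranged from 0.82 at Cps1 to 1.03 at Got1. The Cps1 call was lost under 13 of 18 alternative settings, with adjusted p up to 0.228. Xenobiotic metabolism had 5 higher (5.15%) and 3 lower (3.09%) of 97. Of its 262 intervals in all, 18 were gained (6.87%) and 8 lost (3.05%), against 4.50% and 5.73% near genes of any kind. Gluconeogenesis gave 4 lower and 3 higher of 111, acute phase genes 3 and 1 of 81, clock genes 3 and 2 of 49, and the stress response list none of 20.

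The largest changes were ranked among called intervals within 25000 bases of a gene, so larger rises further from any gene are not among them. Of the 12 genes with the largest falls, led by Mfsd2a, 8 had the called interval over a promoter. Gas1, a membrane protein of growth arrest, had 29.8 and 43.6 in WT and 6.68 and 9.62 in Ppara KO (fell by 2.15 ± 0.26, adjusted p = 0.00231). Rab9, a GTPase of endosomal return, had 18.6 and 31.3 in WT and 5 and 6.71 in Ppara KO (fell by 2.04, adjusted p = 0.00588). Ppp1r12a, a subunit of myosin phosphatase, had 32.4 and 52.7 in WT and 10.8 and 12.8 in Ppara KO (fell by 1.80, adjusted p = 0.00231). Reps2, Btaf1, Gm51999, Atp9a, Aspg, Kank1 and Miga2 were also among the 12. In Cpt2 KO and DKO liver, Ppp1r12a stood at 14.2, 15.0, 16.2 and 21.4, and Gas1 at 9.91, 11.9, 8.25 and no peak, all below either WT liver.

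None of the 12 largest rises in this ranking overlapped a promoter window. Near Acmsd, which steers tryptophan breakdown away from NAD, an interval within the gene (chr1:127749686-127752379) had 3.62 and 4.39 in WT and 16.2 and 17.8 in Ppara KO (2.11 ± 0.25, adjusted p = 0.00231). A second Acmsd interval was gained. It stood at 22.7 and 24.6 in Ppara KO liver, reached 32.0 and 37.4 where Cpt2 was missing as well, and had no peak in a liver with Ppara. Near P2rx7, an ATP-gated channel, the folds were 4 and 5 in WT and 19.2 and 21.8 in Ppara KO (2.21, adjusted p = 0.00231). Spon1, a matrix protein, had 6.17 and 5.80 in WT, 20.7 and 22.8 in Ppara KO, 3.43 and 4.13 in Cpt2 KO, and 17.6 and 28.9 in DKO, which sorts the 8 livers by Ppara. Rpia, Ccdc172, Pdia4, Inava, Tmem86a, Rad51b, Mrpl1, Ogdh and Stk10 had the other 9. Rad51b also had the most gained intervals of any gene, 14 of 62. In DKO against Cpt2 KO, only Acmsd (1.56, limma adjusted p = 0.0177), Inava (1.17, 0.0342) and Spon1 (2.51, 0.000374) of the 12 also passed. The rest did not, among them P2rx7 (0.61, 0.316), Pdia4 (-0.01, 0.995) and Stk10 (0.27, 0.639). With Cpt2 alone deleted, Pdia4 stood at 28.8 and 23.1 and Stk10 at 29.0 and 24.4.

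By size, 568 shared intervals (2.69%) were lower by at least 2-fold and 428 (2.03%) higher, while 14689 (69.7%) lay within 0.5 on the log2 scale. Of those past 2-fold, 480 and 367 passed the threshold. The smallest change that passed was 0.57, with an adjusted p of 0.0499, and the next interval in order had 0.0504. No call had groups that overlapped. With 2 livers a group this is common: it held at 10288 of all 21083 shared intervals, and at 9009 of the 19804 not past the threshold. Intervals that fell had a median fold of 21.5 in WT and 9.42 in Ppara KO, and those that rose had 7.17 and 16.0. Over all shared intervals the medians were 9.95 and 9.80. These levels follow in part from the choice, since the same values set which intervals were called. Lost and gained intervals had a median width of 613 and 800 bases, against 1832 over shared intervals and 619 over all consensus intervals. Their median fold was 6.04 in WT for lost ones and 6.30 in Ppara KO for gained ones. Over all consensus intervals with a peak in the group, the median fold was 6.89 in WT and 7.09 in Ppara KO.

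The 10 strongest lost intervals lay near Trarg1, Mycl, Acot3, Prox2, Osbpl5, Paqr9, Sox12, Sema5b, Bcr and Slc30a10. Trarg1, a protein of GLUT4 vesicles, had 23.1 and 23.3 in WT, and Mycl, a MYC family factor, 22.2 and 23.1, with no peak at either in Ppara KO. The 10 strongest gained ones lay near Pcbp1, Acmsd, Nrg4, Ccdc120, Akt1s1, Exd2, Cped1, Rnf225, Parp16 and Wnt4. The interval near Nrg4, a growth factor ligand, had 24.3 and 20.7 in Ppara KO and none in WT. The genes with the most lost intervals were AI661453 (10 of 21), then Aacs, Ptprf, Tcf7l1 and Zcchc24 with 9 each. Aacs, a ketone-using enzyme of fat synthesis, had 2 more that fell. In all, 2050 genes had a lost interval and 1835 a gained one.

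Promoters took up much of what fell and little of what rose. A promoter window (250 bases before to 50 after a RefSeq start) was overlapped by 374 of 735 lower intervals (50.9%), by 42 of 544 higher ones (7.72%), and by 32.0% of shared intervals. The median change of lower intervals was -1.13 without a promoter window and -1.04 with one. The median change over shared intervals was -0.20 with a promoter window and 0.04 without. Higher intervals lay within a gene in 47.4% of cases, against 83.7% of lower ones and 70.5% of shared ones. Without WT replicate 2 the median with a promoter window was -0.08 and promoters made up 38.2% of lower calls, and without WT replicate 1 these were -0.36 and 62.1%.

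The change at promoters went with base composition. In 4 quartiles of promoter windows by G and C, from 29.0 to 54.7% up to 68.7 to 88.7%, the median change was -0.01, -0.11, -0.22 and -0.36. The share of windows in lower intervals was 2.94%, 3.30%, 5.04% and 9.66%. Without WT replicate 2 the medians were 0.03, -0.02, -0.09 and -0.20 and the shares 0.334%, 0.241%, 0.341% and 0.728%. Without WT replicate 1 the medians were -0.09, -0.26, -0.41 and -0.56. The same quartiles gave medians of 0.02, 0.04, 0.04 and 0.02 for DKO minus Cpt2 KO, livers that share no sample with these. In the richest quartile WT replicates 1 and 2 had median levels of 0.60 and 0.97 and Ppara KO 0.41 and 0.39, while Cpt2 KO and DKO ranged from 0.36 to 0.48. The part of base composition in the falls was not tested.

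**Figure D3:**
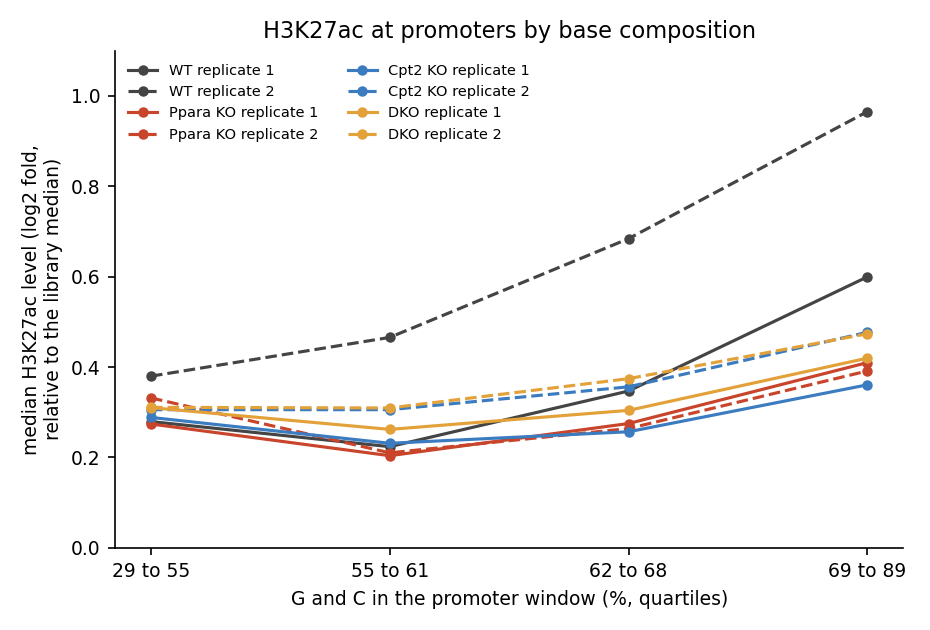
Median H3K27ac level over shared promoter intervals (log2 fold relative to the library median) in 4 quartiles of promoter G and C content, 1 line a library. In the richest quartile WT replicate 2 lies at 0.97 and WT replicate 1 at 0.60, and the other 6 libraries lie between 0.36 and 0.48.

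Ppp1r12a and Slco1a4 show the contrast, and their promoters are printed in the same way (GRCm38.p6; chr10:108161848-108162097 plus, chr6:141856221-141856470 minus), with CG pairs in capitals.
Ppp1r12a: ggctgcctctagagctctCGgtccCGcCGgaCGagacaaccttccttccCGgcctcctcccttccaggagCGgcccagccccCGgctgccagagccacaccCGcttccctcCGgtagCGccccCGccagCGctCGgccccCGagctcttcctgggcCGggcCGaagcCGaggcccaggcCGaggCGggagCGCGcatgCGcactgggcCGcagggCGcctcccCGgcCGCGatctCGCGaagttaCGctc
Slco1a4: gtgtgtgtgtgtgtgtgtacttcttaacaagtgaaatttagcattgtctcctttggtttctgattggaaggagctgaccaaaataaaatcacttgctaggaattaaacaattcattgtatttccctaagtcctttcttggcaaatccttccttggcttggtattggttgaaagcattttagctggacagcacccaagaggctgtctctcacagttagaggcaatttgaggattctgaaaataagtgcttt
The first, which fell, is 75.2% G and C with 30 CG pairs, and the second, which rose, is 39.2% with none. Over 533 windows in lower intervals the median was 67.3% and 21 CG pairs, over 86 in higher ones 51.8% and 4, and over the windows of other shared intervals 61.3% and 16.

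PPARA with RXR binds a direct repeat of AGGTCA with 1 base between the copies, known as DR1. It was searched on both strands of the 250 bases before each start, with up to 2 mismatches in its 12 fixed letters. A match can hold the core motif itself, which 14.0% of all windows hold. DR1 was found in 1063 of 32851 windows (3.24%), in 17 of 533 in lower intervals (3.19%) and in 9 of 86 in higher ones (10.5%), of which some belong to overlapping starts. Of 28 windows in intervals that also fell in DKO against Cpt2 KO, 4 held it (14.3%), and of 505 in the other lower intervals 13 did (2.57%). One of the 4 is Prodh2, which breaks down hydroxyproline, with 29.3 and 28.7 in WT, 10.7 and 17.1 in Ppara KO, 21.5 and 18.3 in Cpt2 KO, and 9.75 and 9.81 in DKO (fell by 1.09 in both pairs, adjusted p = 0.0194 and 0.0224). Its promoter (chr7:30493408-30493657 plus) is given with the repeat in capitals as it reads on the complement.
Prodh2: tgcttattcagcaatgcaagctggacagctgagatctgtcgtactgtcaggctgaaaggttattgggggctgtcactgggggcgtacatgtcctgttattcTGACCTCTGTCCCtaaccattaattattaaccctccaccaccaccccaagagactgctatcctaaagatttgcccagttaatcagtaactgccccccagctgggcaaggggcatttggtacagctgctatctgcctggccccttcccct
The motif says nothing of binding, which was not measured here.

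The effect of Ppara loss in livers without Cpt2 (DKO minus Cpt2 KO) used 4 other livers, and shares only the estimate of spread with the comparison above. In it, 349 of 19633 intervals fell (1.78%) and 127 rose (0.647%). At the 691 intervals lower in Ppara KO that could be tested, 90 fell there as well, none rose, and 488 were below 0, with a median of -0.19. At the 542 higher ones, 31 rose, none fell, and 392 were above 0, with a median of 0.25. Over all intervals the median was 0.01 and Pearson's r across 19633 intervals was 0.256 (Spearman 0.202), across intervals that share libraries and are not independent. Where the lower interval had no promoter window, 70 of 320 also fell (median -0.34), and where it had one, 20 of 371 (median -0.12). Without WT replicate 2 the median at lower intervals was -0.43 and at higher ones 0.37, and without WT replicate 1 these were -0.076 and 0.18.

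**Figure D4:**
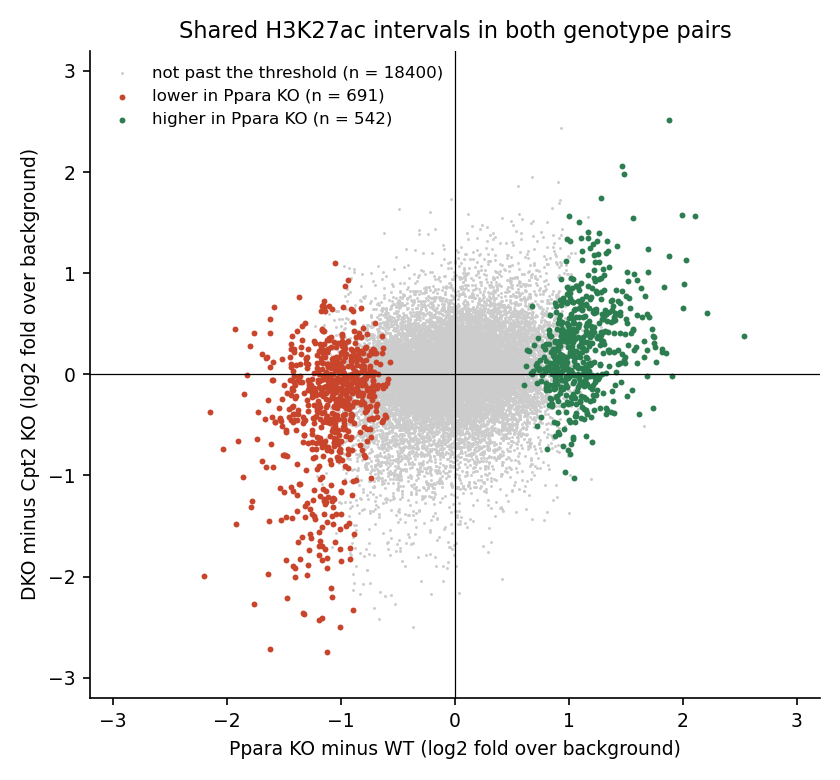
Change in H3K27ac of each shared interval in Ppara KO minus WT (horizontal) and DKO minus Cpt2 KO (vertical), both as log2 fold over background. Of 691 intervals lower in Ppara KO, 488 lie below 0 on the vertical axis, and of 542 higher ones 392 lie above it.

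Fatty acid genes recurred in the second pair. Near the genes of the 8 lists, 32 of 274 intervals fell in DKO against Cpt2 KO, beside 317 of 18009 near genes of any kind. Of the 94 lost intervals 26 were lost in that pair too, beside 424 of 3293 near genes of any kind. In that pair the change was -2.27 at Acaa1b (adjusted p = 0.000563), -2.43 at Cyp4a32, -2.37 at Slc27a2, -1.92 at Cyp4a10, -1.91 at Hsd17b4, -1.66 at Decr1, -2.0 at Mfsd2a and -1.35 at Slc25a20, all past the threshold. Others on these lists that fell in Ppara KO did not pass in that pair. They include Acox2 (0.16, adjusted p = 0.841), Tmem135 (0.06, 0.966), Plin5 (-0.18, 0.832), Acsl1 (-0.20, 0.792), G0s2 (-0.27, 0.764), Mgll (-0.42, 0.414), the Eci2 promoter interval (-0.80, 0.0847) and Eci1 (-0.85, 0.0778). Further intervals chosen after their values were seen include Ppargc1b, a coactivator of nuclear receptors, with 27.8 and 29.6 in WT, 11.2 and 11.6 in Ppara KO, 34.7 and 41.0 in Cpt2 KO, and 11 and 20.2 in DKO, and Abhd6, a monoglyceride lipase, with changes of -1.42 and -1.90 in the 2 pairs. Among the 12 genes with the largest falls, Btaf1 (-1.48, adjusted p = 0.0467) and Atp9a (-1.02, 0.0351) also passed in DKO against Cpt2 KO. Gas1 (-0.37, adjusted p = 0.727), Rab9 (-0.74, 0.308), Kank1 (0.00, 0.999) and Ppp1r12a (0.28, 0.689) gave no call in DKO against Cpt2 KO. The difference between the 2 pairs was itself tested, and at these 4 intervals it did not pass the threshold.

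Over all intervals that test found 1 lower and none higher, and 2878 at an unadjusted p below 0.05. The one lay 21721 bases from Rpia, an enzyme of the pentose phosphate path (chr6:70812513-70815280). Its folds were 3.78 and 4.62 in WT, 22.8 and 25.1 in Ppara KO, 27 and 24.9 in Cpt2 KO, and 35.2 and 35.4 in DKO, so only the WT livers were low. It rose by 2.53 ± 0.20 in Ppara KO (adjusted p = 6.06e-05), and by 0.37 in DKO against Cpt2 KO (adjusted p = 0.469).

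Of 3560 lost intervals, both Cpt2 KO livers had a peak in 21.9% and neither did in 64.8%, while both DKO livers had one in 6.46% and neither in 83.6%. Of 3297 gained intervals, both Cpt2 KO livers had a peak in 55.6% and neither in 28.1%, and both DKO livers had one in 75.5% and neither in 11.1%. Over all 65776 intervals the same 4 shares were 46.5%, 38.2%, 47.8% and 33.8%. A minority was lost or gained again in DKO against Cpt2 KO: 477 of the lost (13.4%), against 4.11% of all intervals, and 416 of the gained (12.6%), against 4.57%. The intervals lost in both pairs were led by Prox2, Sel1l3 and Bfar, listed after their values were seen. Mogat1, an acyltransferase of triglyceride synthesis, was among them at 9.25 and 13.4 in WT liver and 32.8 and 32.0 with Cpt2 alone deleted, and with no peak in the Ppara-null livers. Those gained in both included 2 near Nfil3, a repressor with clock and immune roles, the stronger of them in Ppara KO with 11.3 and 14.7, beside 20.2 and 19.8 in DKO.

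H3K4me1 of WT and Ppara KO liver, a readout that the choice of intervals did not use, differed in the same direction at the median. The labels do not say whether both marks came from the same animals. At 449 lower intervals with H3K4me1 in all 4 livers its median change was -0.21, at 366 higher ones 0.51, and at 11641 others 0.03. Against the WT mean, Ppara KO replicates 1 and 2 had medians of -0.13 and -0.27 at lower and 0.27 and 0.74 at higher intervals, so the 2 livers agreed in sign and differed in size. H3K4me1 was itself lost at 435 lost intervals (12.2%, against 2.91% of all) and gained at 549 gained ones (16.7%, against 3.40%). Yet both Ppara KO livers kept an H3K4me1 peak at 1350 lost intervals (37.9%), and both WT livers had one at 719 gained ones (21.8%). The H3K4me1 library of Ppara KO replicate 2 covered 42.7 Mb, and the other 3 covered 52.5 to 53.3 Mb. Without it the median at lower intervals was -0.10.

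**Figure D5:**
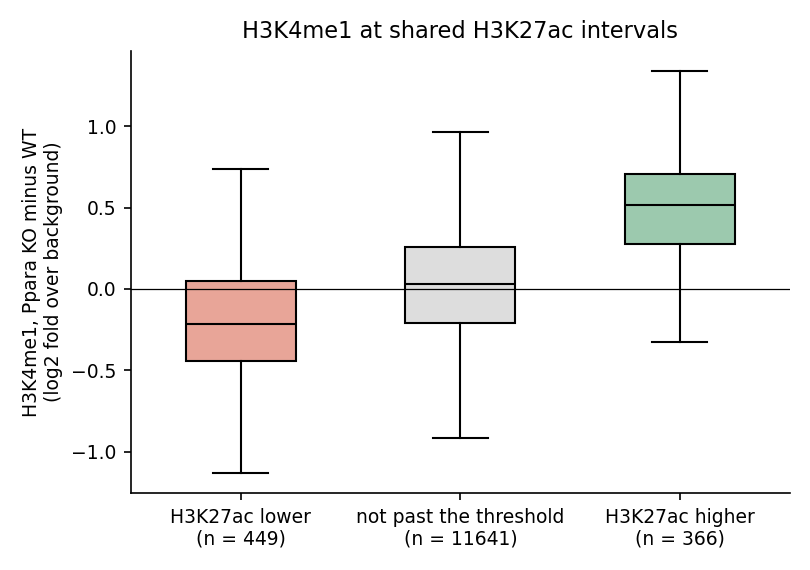
Change in H3K4me1 (log2 fold over background, Ppara KO minus WT) at shared H3K27ac intervals that were lower, not past the threshold or higher. Boxes span the quartiles with the median as a line and whiskers reach 1.5 times that span; medians are -0.21, 0.03 and 0.51.

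Markers of other liver cells were read as the summed fold of their intervals, without centring. Over intervals within 25000 bases of any gene, the folds summed to 284184 and 331789 in WT and 271124 and 281785 in Ppara KO. Hepatocyte markers had intervals at 18 of 20 genes, which summed to 1235 and 1115 in WT and 897 and 1074 in Ppara KO, and 1 of 63 shared intervals fell (Cebpa) while 3 rose. Macrophage markers summed to 114 and 97.4 in WT and 156 and 152 in Ppara KO, with no interval of 11 past the threshold, and Adgre1, Vsig4 and Cd5l had no peak in any of the 4 livers. Endothelial markers summed to 634 and 538 in WT and 834 and 645 in Ppara KO, and 1 of 52 intervals rose, near Stab2. Stellate cell markers summed to 81.1 and 69.5 in WT and 59.0 and 54.8 in Ppara KO. Of bile duct markers, Sox9 fell, while Krt19, Krt7 and Epcam had no peak. In whole liver, fewer cells of a type and less of the mark in each cannot be told apart, and the part of cell makeup in the changes was not tested.

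Leaving out each of the 4 livers in turn, 21 lower and 29 higher intervals kept their call every time, and all 1279 calls kept their sign. The 21 include Acaa1b, Eci2, Slc27a1, Gas1, Rab9, Atp9a, Ppp1r12a, Lrp4 and Abca1, and 15 of them overlap a promoter window. The higher ones include Rpia, P2rx7, Acmsd, Pdia4, Tmem86a, Stk10, Ogdh, Rad51b and Lipc, the hepatic lipase, and 1 of them overlaps a promoter window. That all calls kept their sign adds little, because no call had groups that overlapped and the sign could hardly turn.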

How the data were processed

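H3K27ac ChIP-seq of 8 fasted livers (2 per genotype) and 4 H3K4me1 libraries of WT and Ppara KO liver were used. Reads were aligned with BWA to mm10 and peaks called per library with MACS2 2.1.0, per the submitters' processing notes. The deposited peak files give, per peak, the fold over background (a ratio) and −log10 p and q values; these are the authors' values, and every peak has a −log10 p of at least 7.02. The consensus intervals are the authors' deposited set. Read depth is not given, so precision rests on the 2 livers per group.

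For each interval the highest fold of an overlapping peak (at least 1 base) was taken, log2-transformed and centred on the library median over the 21083 intervals called in all 4 WT and Ppara KO libraries. These were fitted in R 4.3.3 with limma 3.58.1 (lmFit, eBayes with trend) on the 4 genotype means of all 8 libraries; uncalled values of Cpt2 KO and DKO were left missing. Contrasts were Ppara KO minus WT, DKO minus Cpt2 KO, and their difference, adjusted by Benjamini-Hochberg over all intervals tested at 0.05. A value needs a peak, so changes below the peak threshold appear as lost or gained intervals, which have no test with 2 livers against 2. On simulated data the fit recovered 16% of 100 intervals changed by 1 on the log2 scale and 79% of 100 changed by 2. It made 3 false calls. An interval that did not pass may thus still have changed. Tables were made in Python 3.11.15 with pandas 2.3.3.

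An interval was assigned to the protein-coding RefSeq gene (GRCm38.p6) nearest to its middle within 25000 bases, which names a neighbour, not a target. Promoter sequences are from the RefSeq table of the same build, which is not complete (17491 genes). Named were the targeted and control genes, the 12 largest changes each way, up to 4 genes per list and direction, the 10 strongest lost and gained, the genes with the most of each, and fatty acid genes with lost or gained intervals. Members and lists were chosen with earlier results of these data known. Alternatives changed scaling, libraries, filters, overlap, replicates and promoters. Some genes that these rules would name are not reported here.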

Additional observations from a re-analysis of the deposited data

Results flagged for a closer look

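The interval near Rpia (chr6:70812513-70815280) is the one where the change with Ppara loss differed between livers with and without Cpt2 by a test of that difference. It rose by 2.53 in Ppara KO against WT and by 0.37 in DKO against Cpt2 KO, a difference of -2.159 ± 0.29 on the log2 scale (limma, adjusted p = 0.0391). The fold was 3.78 and 4.62 in WT and between 22.8 and 35.4 in the other 6 livers.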

How the results depend on the processing

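Of 1279 shared intervals past the threshold (735 lower, 544 higher), the count was 861 with no centring (344 higher), 1267 with quantile normalization, 945 with only the 4 WT and Ppara KO libraries (359 higher), 1092 with peaks of −log10 q of at least 10, and 62 with smallest peak width as a covariate (25 lower, 37 higher, 3 near the fatty acid lists). Quantile normalization moved the share of higher calls from 42.5% to 56.8%. Without intervals that overlap a promoter window, an alternative chosen after seeing the data, 867 passed, 470 of them lower, 13 near the fatty acid lists. Leaving out each library gave 151 to 1945 calls, 76 to 1172 lower, 58 to 773 higher, and 7 to 30 near the fatty acid lists; the lowest values came without Ppara KO replicate 1 or WT replicate 2. Lost intervals ranged from 4748 to 7985 and gained ones from 4369 to 7248 when 1 liver of a pair had to meet the rule alone. Deviations of replicate 1 in WT and in Ppara KO were uncorrelated across intervals (r = -0.0001). This cannot show whether samples of equal replicate number belong together, which the labels do not state. With a replicate block 1104 intervals passed.

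DKO minus Cpt2 KO had medians of -0.19 at lower and 0.25 at higher intervals. These were -0.19 and 0.42 with no centring, -0.25 at lower ones with quantile normalization, -0.29 and 0.35 without promoter intervals, and -0.43 to -0.076 and 0.18 to 0.42 with a library left out. The interaction count was 1, but 0 with no centring or without promoter intervals and 0 to 64 with a library left out. H3K4me1 medians ranged from -0.27 to -0.10 at lower and 0.30 to 0.74 at higher intervals. The sign at Actb turned with quantile normalization (0.16), the width covariate (0.16), and with a library left out, where it ranged from -0.32 to 0.20 (0.20 without WT replicate 2, 0.042 without Ppara KO replicate 2). Of the set of 192 called intervals, 158 kept the call with no centring, 28 with the width covariate and 41 to 186 with a library left out. The causes were not tested.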
